A study of Mus musculus with 10 samples.

Results

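Open chromatin at 43 genes of DNA replication and the cell cycle was described in the embryonic mouse epicardium, the mesothelial layer that covers the heart. The genes were a named list. They are 43 of 21851 protein-coding genes with an annotated start in GENCODE M21, and summits of accessibility inside or within 10 kb of any of them were taken as theirs. Over the 6 epicardial libraries these summits formed 215 of 160165 elements, each a summit extended by 250 bp on both sides. A summit within 1 kb of an annotated start of the gene was called its promoter.

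Replication begins when the origin recognition complex, Cdc6 and Cdt1 load the Mcm2 to Mcm7 helicase onto DNA in G1, a step called licensing. Cdc45 and the GINS complex then switch the helicase on, and polymerases, the Pcna clamp and its loader copy the DNA from nucleotides that ribonucleotide reductase and thymidylate synthase supply. Cyclins and their kinases drive these steps, E2F factors turn many of the genes on before S phase, and the DREAM and MuvB complexes act on G2 and M phase genes through the CHR element, while Cdkn1a (p21) inhibits the kinases.

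The deposited data are bulk ATAC-seq peak lists of cells sorted from hearts of Rosa26tdTomato;Wt1CreERT2/+ embryos on a C57BL/6J background, in which tamoxifen given at E9.5 marked cells that expressed Wt1 and their descendants with tdTomato. The E11.5 epicardium (3 libraries, 6 hearts pooled for each) and the E17.5 epicardium (3 libraries, 4 hearts each) were sorted as CD31- tdTomato+ PDPN+ cells. The EPDCs (epicardium-derived cells, the mesenchymal progeny) were sorted as CD31- tdTomato+ PDPN- cells from E12.5 (1 library) and E13.5 hearts (2 libraries, 4 to 13 hearts each), with 40000 to 50000 cells a sort. All libraries share the genotype, the label and its timing, so both layers hold only cells descended from those that expressed Wt1 when tamoxifen was given. The question asked of these genes is how the promoters and nearby elements of the E11.5 layer compare with those of the E17.5 layer.

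The lists held 97146 to 109307 peaks at E11.5, 75234 to 93617 at E17.5 and 80019 to 105676 in EPDCs, over a genome background of 2.07 to 10.9 fragments per position. That background and the fragments at each summit are not in the lists and were solved from the deposited fold enrichment and −log10 p of each summit. Of 13 epicardial markers 12 had a promoter summit in each E11.5 library (Msln had none) and all 13 in each E17.5 library. Of 6 endothelial markers, Pecam1, Cdh5, Emcn and Tie1 had none in any library, while Tek and Kdr had a summit in every library. The 6 blood markers had none in any epicardial library. Cardiomyocyte markers were called at 4 to 6 of 7 promoters at E11.5 and at 4 of 7 at E17.5, with mean ranks of 26.9 to 37.8 and 24.4 to 25.2 but median ranks of 34.03 to 34.7 and 37.0 to 40.4, and mesenchymal markers had mean ranks of 49.0 to 52.3 and 55.5 to 59.2, with Postn uncalled at E11.5 alone. The mesenchymal list was higher at E17.5 and the cardiomyocyte list went opposite ways by mean and median, and their part in the values below was not tested.

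Sequence was taken from the RefSeq promoter table of GRCm38.p6, the same build as mm10, which matched 33 of the 43 genes, each from 250 bases before to 50 after a start. Mcm4, Gins1, Gins2, Pole, Ccnd1, Ccnd2, Ccne2, Ccna2, Foxm1 and Aurkb were not matched. The E2F words TTTGGCGC, TTTCGCGC, TTTCCCGC or TTTGCCGC occurred on either strand in 11 of the 33 promoters (33.3%), against 2.98% of the 16515 protein-coding promoters in the table and 3.95% of those tested between stages. The CCAAT word occurred in 23 of 33 (69.7%), against 38.8% of all, and the CHR words TTTGAA or TTCGAA in 9 of 33 (27.3%), against 17.03% of all. Some E2F matches overlap one another, as in Mcm6. None of the 3 kinds of word was found in 7 of the 33 promoters, which were Rfc4, Tyms, Tk1, Ccne1, E2f1, Birc5 and Cdkn1a, against 49.7% of all. These shares describe letters in a window and were not tested. Shown first are the 4 promoters whose rank passed the test between stages, and then Rrm2, which no epicardial library called, and Mki67, Mcm6 and Cdk1, which carry the words. Each runs from 170 bases before the start to 30 after it, 5′ to 3′ on the gene's strand, and capitals mark E2F, CHR and CCAAT words.
Tyms, chr5:30073596-30073795, minus strand: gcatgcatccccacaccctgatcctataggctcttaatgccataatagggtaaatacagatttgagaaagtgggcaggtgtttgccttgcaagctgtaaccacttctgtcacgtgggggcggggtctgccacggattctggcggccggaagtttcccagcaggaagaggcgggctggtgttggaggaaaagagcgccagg
Rfc4, chr16:23127701-23127900, minus strand: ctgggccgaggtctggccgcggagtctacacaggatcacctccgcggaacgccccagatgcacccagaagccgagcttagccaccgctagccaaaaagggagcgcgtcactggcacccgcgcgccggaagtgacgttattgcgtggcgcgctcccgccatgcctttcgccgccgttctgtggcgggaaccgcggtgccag
Ccne1, chr7:38107461-38107660, minus strand: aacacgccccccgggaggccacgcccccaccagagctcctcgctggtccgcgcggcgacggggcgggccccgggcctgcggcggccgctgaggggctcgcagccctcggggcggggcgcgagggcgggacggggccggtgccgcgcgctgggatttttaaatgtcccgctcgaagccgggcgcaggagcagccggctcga
Cdkn1a, chr17:29093599-29093798, plus strand: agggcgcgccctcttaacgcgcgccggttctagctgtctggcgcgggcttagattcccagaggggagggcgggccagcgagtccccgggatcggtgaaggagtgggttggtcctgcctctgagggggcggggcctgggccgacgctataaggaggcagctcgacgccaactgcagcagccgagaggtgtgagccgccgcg
Rrm2, chr12:24708084-24708283, plus strand: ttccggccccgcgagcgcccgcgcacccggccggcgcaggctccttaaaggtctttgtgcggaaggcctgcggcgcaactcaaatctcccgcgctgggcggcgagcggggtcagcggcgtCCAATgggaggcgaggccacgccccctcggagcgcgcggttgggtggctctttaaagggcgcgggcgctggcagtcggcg
Mki67, chr7:135716350-135716549, minus strand: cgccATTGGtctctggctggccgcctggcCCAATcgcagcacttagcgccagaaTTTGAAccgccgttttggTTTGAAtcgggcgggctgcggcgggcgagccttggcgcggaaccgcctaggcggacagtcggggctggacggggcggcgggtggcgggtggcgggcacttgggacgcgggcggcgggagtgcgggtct
Mcm6, chr1:128359676-128359875, minus strand: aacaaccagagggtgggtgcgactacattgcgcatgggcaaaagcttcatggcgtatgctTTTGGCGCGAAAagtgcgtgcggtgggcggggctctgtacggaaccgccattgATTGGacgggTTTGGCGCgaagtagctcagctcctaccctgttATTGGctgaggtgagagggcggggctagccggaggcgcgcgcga
Cdk1, chr10:69352883-69353082, minus strand: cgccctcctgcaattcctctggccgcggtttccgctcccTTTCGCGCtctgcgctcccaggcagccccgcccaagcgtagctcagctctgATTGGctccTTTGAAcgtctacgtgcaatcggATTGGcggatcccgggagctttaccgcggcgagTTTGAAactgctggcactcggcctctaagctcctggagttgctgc

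The promoters of these genes ranked high, and 4 of the 42 called in the epicardium passed the test between the stages. Promoter rank is the percentile, in 1 library, of a gene's strongest promoter summit by −log10 p among all 21851 protein-coding promoters, with 0 where none was called, so it compares genes within a library and says nothing of the total amount of open chromatin. Summits were called in all 6 epicardial libraries at 42 of the 43 promoters, and Rrm2 was called in none of them. The median of the stage means over the 42 was 83.2 at E11.5 against 82.6 at E17.5, against 66.1 and 66.2 over the 14842 promoters tested, and 28 of the 42 lay above the percentile of 75 at E11.5 (66.7%, against 36.4% of all tested). Rank at E11.5 ran from 39.3 for Ccnd2 to 99.8 for Gins2. Of the 42 promoters tested with limma, 3 rose (Rfc4, Ccne1 and Cdkn1a), 1 fell (Tyms) and 38 did not pass an adjusted p of 0.05. Over all promoters tested, 25.2% passed, 12.3% higher and 13.0% lower at E17.5. The share of 4 in 42 is below that background, which was not matched to the higher ranks of these genes. In bulk libraries a change in the share of cells and a change in each cell cannot be told apart. Without E17.5 replicate 3 none of the 42 rose, without E11.5 replicate 2 only Cdkn1a did, and without E11.5 replicate 1 Mcm5 fell as well as Tyms. With fold enrichment as the ranking value, none of these 4 passed, and Cdc6 and Mcm7 rose and Cdt1 fell. Over all promoters the split was 1820 higher to 1926 lower, and it was 929 to 2485 among all peaks, 2203 to 1492 among equally many top peaks, 3997 to 1520 as depth-scaled score and 10689 to 1173 as fragments over background, where the median of all promoters shifted by 0.21 and 0.51 on the log2 scale in the last pair. The libraries of the stages did not overlap at 15 of the 42 promoters, 9 higher and 6 lower at E17.5, against 41.7% of all tested. The median difference was 0.139 percentile points over the 42 and 0.0107 over all, and the median size of a difference was 2.90 and 3.69. With 3 libraries a stage, the smallest p of an exact permutation test of 1 promoter is 0.10, which every promoter without overlap reaches.

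**Figure D1:**
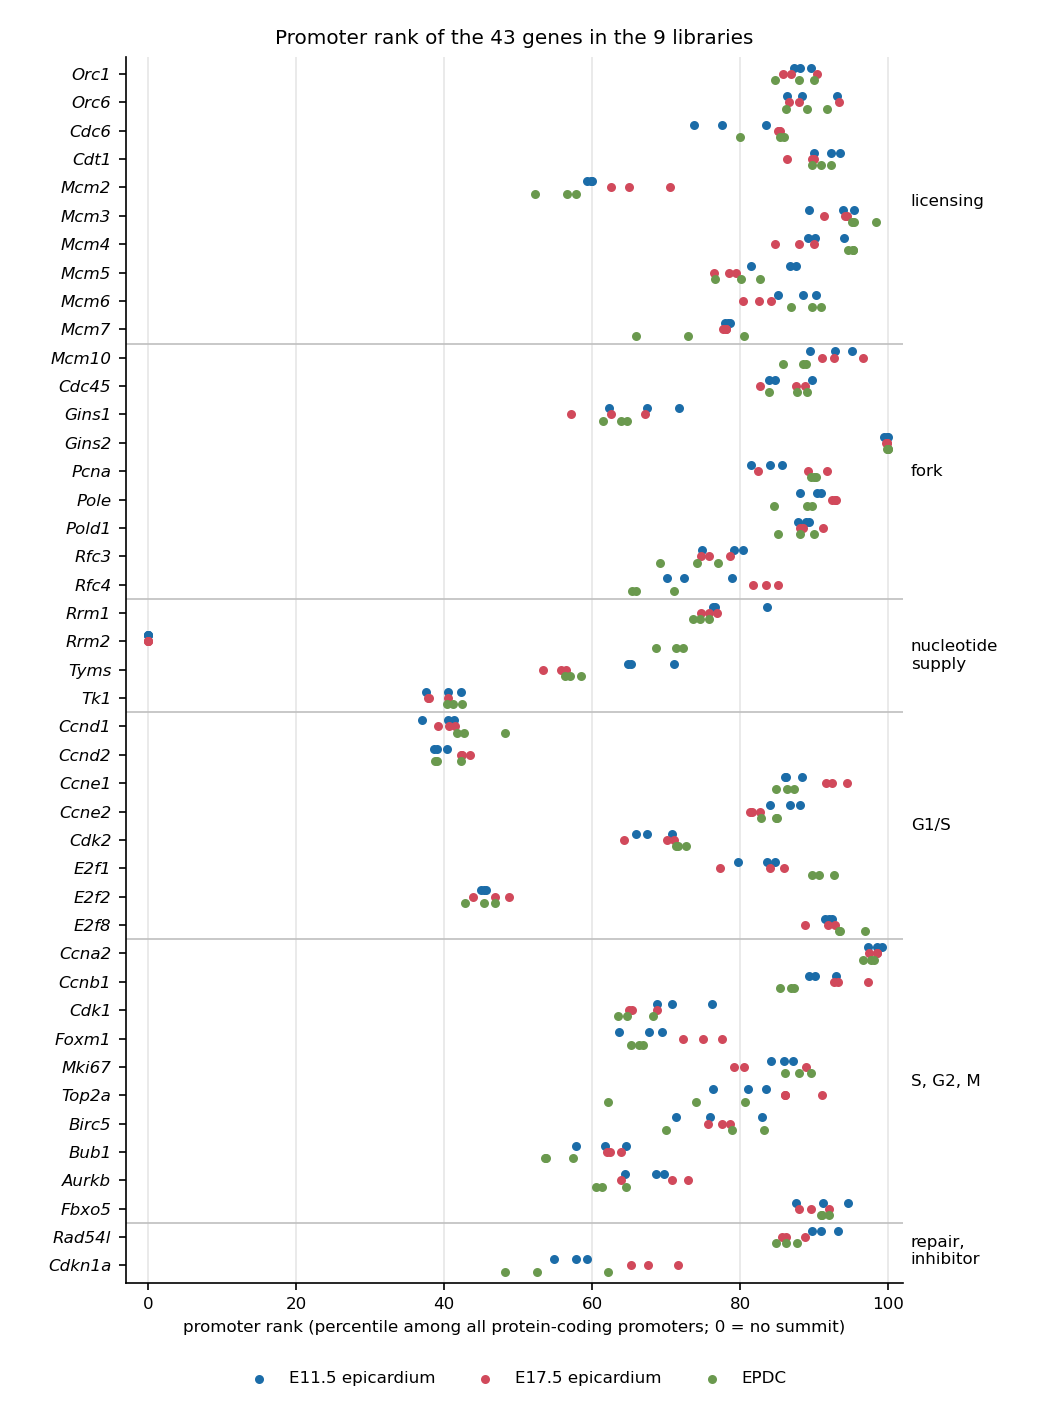
Promoter rank (x axis, percentile among all protein-coding promoters of a library, 0 where no summit was called) of the 43 genes (rows, grouped by role) in the 3 E11.5, 3 E17.5 and 3 EPDC libraries, 1 point for each library. Most genes lie above 60 in every library, Tk1, Ccnd1, Ccnd2 and E2f2 lie below 50, and Rrm2 is at 0 in the 6 epicardial libraries only.

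Among the 10 licensing genes none passed the test, and the median rank was 88.1 at E11.5 against 86.4 at E17.5. Cdc6, which recruits the helicase with Cdt1, had ranks of 73.8, 77.5 and 83.4 at E11.5 against 85.1, 85.2 and 85.4 at E17.5. All E17.5 values lay above all E11.5 values, but the difference of 7.04 ± 2.82 (SE) gave an adjusted p of 0.084 (limma). Mcm2, a helicase subunit, stood at 59.9, 59.3 and 59.9 at E11.5 against 62.5, 65.0 and 70.5 at E17.5 (adjusted p 0.13). Mcm5 and Mcm6, of the same ring, lay lower at E17.5. Mcm5 had 81.4, 87.5 and 86.7 against 78.5, 76.4 and 79.4 (adjusted p 0.065), and Mcm6 88.4, 90.3 and 85.1 against 82.6, 84.2 and 80.4 (adjusted p 0.10). Neither pair of ranges overlapped, and neither difference passed the test. The remaining members Orc1, Orc6, Cdt1, Mcm3, Mcm4 and Mcm7 had ranges that overlapped between stages, with differences of −3.57 for Mcm4 to 0.499 for Mcm3. Orc1, Orc6, Mcm4 and Mcm7 share their promoter with a neighbouring gene (Prpf38a, Vps35, Prkdc and Ap4m1), as do Cdc45 with Ufd1, Pole with Pxmp2, Tk1 with Afmid and Foxm1 with Rhno1, so those ranks belong to both genes.

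At Mcm7 the shared promoter held 2 separate summits, of which the one nearer the start passed the test between stages and the other did not. Promoter rank takes whichever of them was stronger in a library, and gave 78.4, 78.7 and 77.9 at E11.5 against 77.7, 78.1 and 78.1 at E17.5. The element 212 bp before the start had element ranks (percentile among equally many top summits) of 94.5, 93.1 and 93.7 at E11.5 against 85.1, 82.0 and 81.0 at E17.5, a fall of 11.1 ± 1.21 (SE, adjusted p 0.0021, limma). The element that fell lay 0.03 kb from a start of Ap4m1, in exons of both genes. The other, 624 bp past the start in an intron of Mcm7, had 93.7, 94.3 and 93.6 against 94.5, 94.4 and 94.7 (adjusted p 0.20, limma). With promoters read within 500 bp of a start, Mcm7 joined Tyms among the members lower at E17.5.

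Of the 9 genes of helicase activation and the fork, Rfc4 rose and the other 8 did not pass. Rfc4 is a subunit of the complex that loads the Pcna clamp. Its promoter had ranks of 78.9, 70.1 and 72.4 at E11.5 against 81.8, 83.5 and 85.1 at E17.5, on 168 to 205 fragments at the summit at E11.5 and 194 to 335 at E17.5. The stages did not overlap, and the difference was 9.66 ± 2.96 (SE, adjusted p 0.028, limma). The call was lost without E11.5 replicate 2 (adjusted p 0.11) or 3 (0.075), and without E17.5 replicate 2 (0.082) or 3 (0.10). Pcna itself ranked 84.0, 85.6 and 81.5 in the E11.5 libraries and 89.2, 91.8 and 82.4 at E17.5, which overlap (adjusted p 0.29). Gins2, a GINS subunit, held the highest rank of the list in every library, from 99.5 to 99.9, with 555 to 788 fragments at its epicardial summits. Pole, the catalytic subunit of the leading-strand polymerase, had 91.0, 90.3 and 88.1 against 92.4, 93.0 and 92.7, without overlap but not called (adjusted p 0.18). Gins1 stood at 67.5, 71.7 and 62.2 against 57.1, 62.5 and 67.1, and its ranges overlapped, as did those of Mcm10, Cdc45, Pold1 and Rfc3.

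In the nucleotide supply group Tyms fell. Tyms encodes thymidylate synthase, which makes the thymidine nucleotide dTMP. Its promoter ranked 64.8, 65.2 and 71.1 at E11.5 against 55.8, 53.3 and 56.5 at E17.5, on 145 to 154 and 78 to 131 fragments. Every E17.5 library was below every E11.5 library, and the difference was −11.8 ± 2.76 (SE, adjusted p 0.0061, limma), with a difference of −12.9 to −9.80 and the call kept in each of the 6 fits that left out 1 library. With fold enrichment as the ranking value, the difference was −3.87 with an adjusted p of 0.45. Tk1, the salvage thymidine kinase, ranked low at 42.2, 40.5 and 37.6 against 37.8, 37.9 and 40.6. Rrm1, the large subunit of ribonucleotide reductase, had 76.6, 76.4 and 83.6 against 75.8, 74.7 and 76.9 (adjusted p 0.49). No promoter of its partner Rrm2 could be compared between the stages.

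Among the 8 G1/S genes Ccne1 rose and the others did not pass. Ccne1 encodes cyclin E1, which activates Cdk2 at the entry to S phase. Its promoter ranked 86.1, 86.1 and 88.3 at E11.5 against 94.4, 91.6 and 92.4 at E17.5, on 300 to 328 and 357 to 508 fragments, a difference of 5.93 ± 1.71 (SE, adjusted p 0.021, limma). The call was lost without E11.5 replicate 2 (adjusted p 0.057), E17.5 replicate 1 (0.091) or E17.5 replicate 3 (0.056). Its paralog Ccne2 lay the other way, with 88.1, 84.0 and 86.8 against 81.4, 82.7 and 81.6 (difference −4.44 ± 2.33, adjusted p 0.18), again without overlap. The D-type cyclins ranked among the lowest promoters of the list. Ccnd1 had 37.0, 41.3 and 40.5 against 39.2, 40.6 and 41.4 (adjusted p 0.70). Ccnd2 had 38.6, 40.4 and 39.0 against 42.2, 43.5 and 42.4, a difference of 3.39 ± 1.20 with an adjusted p of 0.052. With the gene record's own start in place of all transcript starts, the Ccnd2 difference was −8.42 (adjusted p 0.036), so its direction depends on which start is read. E2f1, E2f2 and E2f8, and Cdk2, had overlapping ranges, with E2f2 at 43.8 to 48.8 and E2f8 at 88.7 to 92.9.

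None of the 10 genes of S, G2 and M phase passed the test. Ccna2, which encodes cyclin A2, held the second highest rank of the list, with 99.2, 98.5 and 97.3 at E11.5 against 98.5, 98.5 and 97.5 at E17.5. Mki67, the gene of the Ki-67 proliferation antigen, had 84.2, 85.9 and 87.1 against 80.5, 88.9 and 79.1, and the stages overlapped (difference −2.90 ± 2.78, adjusted p 0.49). Top2a, a topoisomerase that untangles replicated DNA, had 83.5, 81.0 and 76.3 against 86.1, 91.1 and 86.0 (adjusted p 0.054, limma). Foxm1, a factor that drives G2 and M genes, had 69.4, 67.6 and 63.6 against 72.3, 74.9 and 77.5 (adjusted p 0.062). For both genes all E17.5 values exceeded all E11.5 values without a call. Cdk1, the mitotic kinase, had 70.7, 68.7 and 76.2 against 65.3, 68.7 and 65.0 (adjusted p 0.20), without overlap and in the reverse direction. The ranges of Ccnb1, Birc5, Bub1, Aurkb and Fbxo5 overlapped, with differences between −1.30 and 3.60.

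The largest rise of the list was at the inhibitor. The Cdkn1a promoter ranked 54.8, 57.8 and 59.2 at E11.5 against 65.3, 67.6 and 71.6 at E17.5, on 149 to 171 and 179 to 336 fragments. The stages did not overlap, and the difference was 10.9 ± 2.82 (SE, adjusted p 0.011, limma). The adjusted p was 0.059 (limma) without E17.5 replicate 3. With the gene record's own start in place of all transcript starts, Rfc4 and Ccne1 rose and Cdkn1a was not among those that passed. Ranked by fold enrichment, the Cdkn1a difference was −2.77 (adjusted p 0.42), so its direction depends on the ranking value. Rad54l, a gene of recombinational repair, had 89.6, 93.3 and 90.9 against 86.2, 85.7 and 88.7, without overlap and without a call (adjusted p 0.10).

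**Figure D2:**
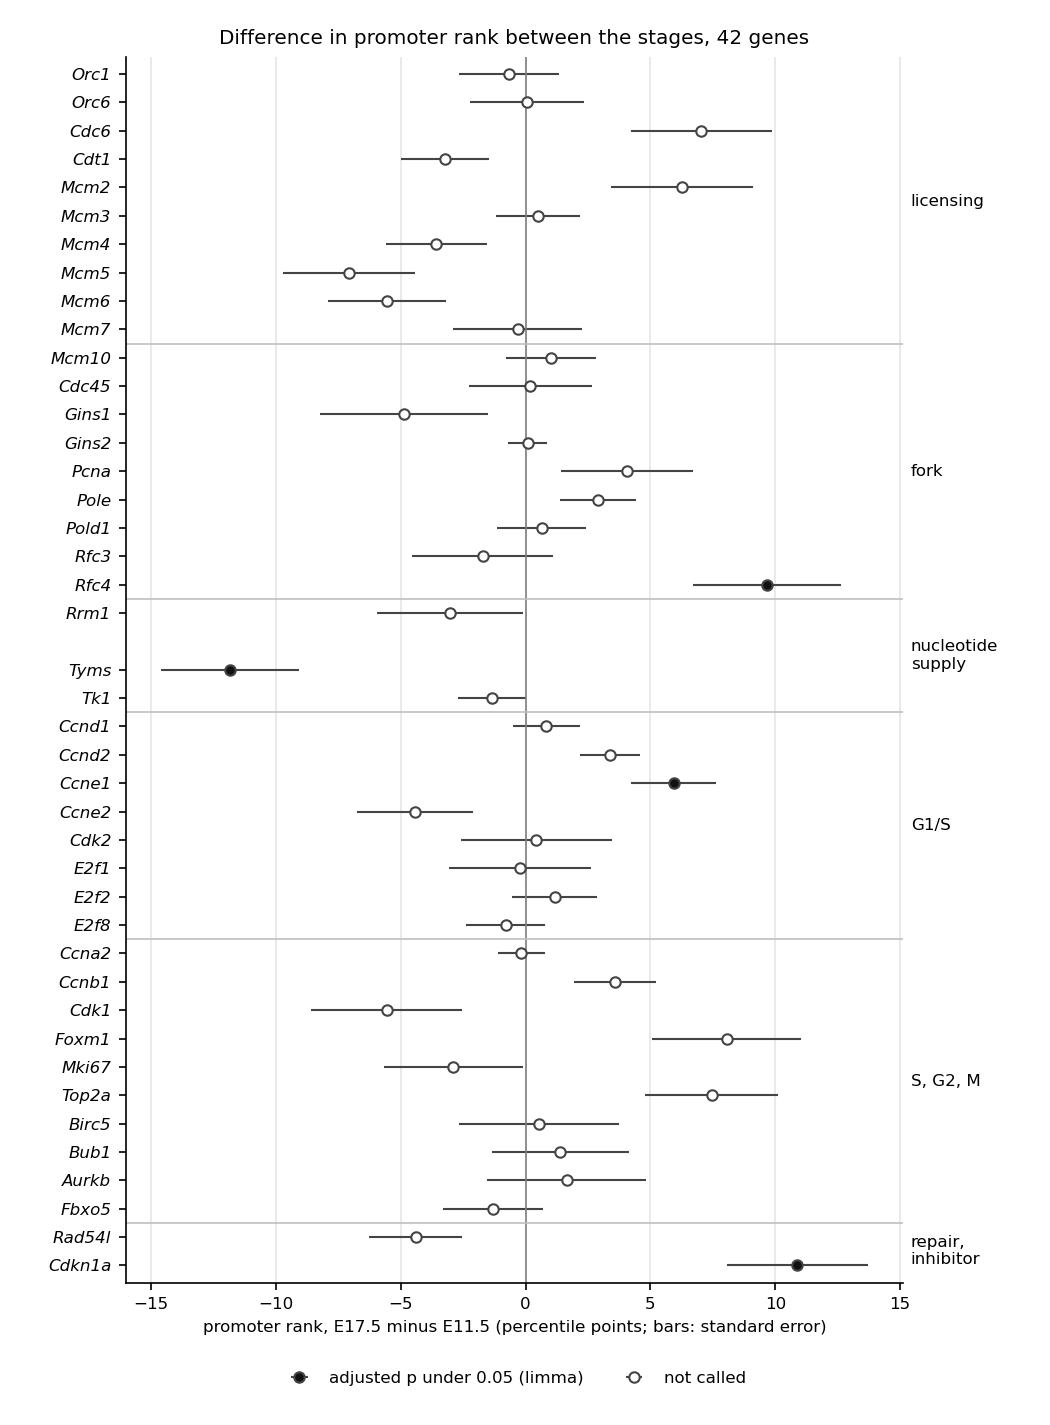
Difference in promoter rank, E17.5 minus E11.5 (x axis, percentile points), for the 42 genes with epicardial summits, with limma standard errors as bars and filled points where the adjusted p was under 0.05. Rfc4, Ccne1 and Cdkn1a lie to the right, Tyms to the left, and the 3 nucleotide supply genes all lie left of 0.

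**Figure D3:**
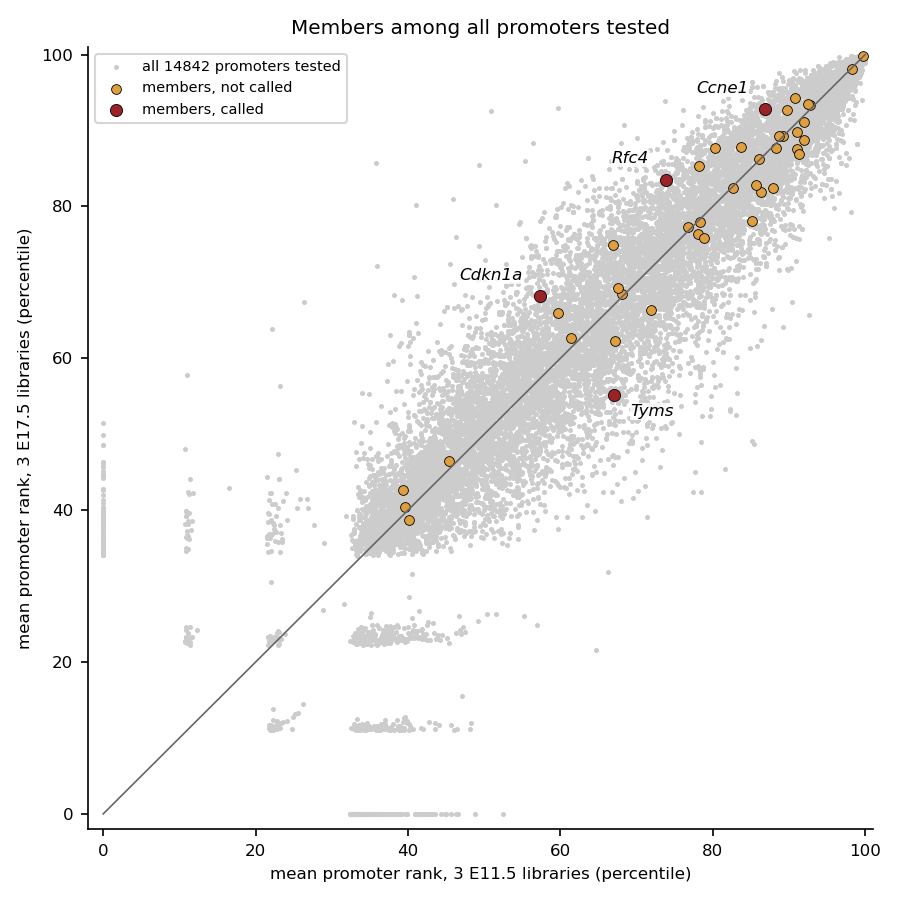
Mean promoter rank at E11.5 (x axis) and E17.5 (y axis), each over 3 libraries, for all 14842 promoters tested (grey) with the 42 members on top. The members sit in the upper part of the diagonal cloud, with the 4 that were called in dark red.

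The other genes of these pathways were read against the 25.2% of all promoters tested that passed. Of 54 further replication and mitosis genes, all tested, 2 rose (Rfc2 and Rfc5) and 3 fell (Prim1, Pole3 and Fen1), with a median rank of 86.3 at E11.5 against 85.6 at E17.5. The differences of Rfc2 and Rfc5 were 9.61 ± 2.96 and 10.6 ± 2.78 (adjusted p 0.029 and 0.012, limma). Prim1, the primase subunit, had the largest fall of these, −14.9 ± 2.90 (adjusted p 0.0017), ahead of Pole3 at −13.1 and the flap nuclease Fen1 at −8.23. Of 15 regulators of the E2F and cyclin D pathways only Rb1, the retinoblastoma gene, was called, with a rise of 11.7 ± 2.76 (adjusted p 0.0064). None of the 6 further inhibitor genes of the Cdkn1 and Cdkn2 families was called in the same test.

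Of the distal elements around the genes that had summits at both stages, 14 of 56 passed the test, 5 higher and 9 lower at E17.5 (25%), against 38.8% of all such distal elements. Elements were ranked by the strongest summit inside them among the 94909 strongest summits of each library, the number in the smallest list, with 0 where none was inside. Among the 14 were elements near Mcm5, Mcm4 and Tk1 that ranked 0 in every library of 1 stage. Their summits at that stage lay outside the ranked lists, and the 38.8% counts such elements too. Of the 215 elements, 64 were promoters of the 43 genes, 37 lay within 1 kb of a start of another protein-coding gene and 114 were distal, near 26 of the 43 genes. Assignment is by distance alone, and the window is fixed. The outermost element inside it lay 9798 bp from Rrm1 (mean rank 51.3 at E11.5 against 7.31 at E17.5) and the nearest outside it 10062 bp from Cdkn1a (43.8 and 38.1). Of the promoter elements 55 were tested, 7 rose and 2 fell (16.4%), against 24.7% of all promoter elements tested. The 7 were at Ccnd2, Cdkn1a, Mcm2, Rfc4, Ccne1, Ccne2 and Mcm6, and the 2 at Tyms and Mcm7. Those at Mcm6 and Ccne2 were weak elements inside the gene, beside a stronger one at the start that did not pass. The Mcm6 element 617 bp past the start ranked 0 in all E11.5 libraries against 6.16, 8.63 and 6.66 at E17.5. Of the E11.5 libraries 2 held it outside their ranked lists, with summits of 43 and 38 fragments against 32, 68 and 52 at E17.5, and the one at its start differed by −1.27 (adjusted p 0.13, limma). The Ccne2 element 587 bp past the start ranked 8.29, 0 and 0 at E11.5 against 17.04 to 25.6 at E17.5, and the one at its start differed by −0.99 (adjusted p 0.12, limma). At Ccnd2 the element at the start ranked 48.4, 52.3 and 42.4 at E11.5 against 61.3, 62.9 and 63.0 at E17.5 (adjusted p 0.018, limma). Of the distal elements 74 had a summit in at least 3 libraries and were tested, 12 rose and 10 fell (29.7%), against 40.3% of all distal elements tested. Over all 113803 elements tested, 37.5% passed, 17.3% higher and 20.3% lower at E17.5. The other 40 distal elements were too sparse to test, and 18 of the 74 were called at 1 stage only, so that they could pass the filter only through it. Their presence had to differ, though some, as near Orc1 and Gins2, ranked 0 in every library of both stages. Of the elements called, 7 of the 12 and 1 of the 10 were among these 18. Without E11.5 replicate 1, E11.5 replicate 2 or E17.5 replicate 3, 6 distal elements fell in place of 10. Summits stood in all E17.5 and no E11.5 library at 10 of the 74 distal elements tested, and in all E11.5 and no E17.5 library at 8, against 8.18% and 20.0% of all distal elements tested.

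The widest gains were elements that stood in the E17.5 lists alone. Elements with no summit at the other stage, and those with summits there only outside the ranked lists, are given as a description with no p. The first lay in an intron of Rrm1, 2.81 kb past its start (chr7:102444253-102444753), with element ranks of 81.9, 79.3 and 75.7 at E17.5 on 108 to 189 fragments and no summit in any E11.5 or EPDC library. The second lay in an intron of Pold1, 12.1 kb past the start of that polymerase gene (chr7:44536514-44537014), at 77.7, 83.3 and 69.9. The third lay 25.3 kb past the start of Cdc6, in an intron of its neighbour Rara (chr11:98933155-98933655), at 72.3, 64.6 and 64.7. All 3 were absent from the 6 other lists, and their central bases are shown on the plus strand with words of the AP-1 type, TGANTCA, in capitals.
Rrm1 intron, chr7:102444453-102444553: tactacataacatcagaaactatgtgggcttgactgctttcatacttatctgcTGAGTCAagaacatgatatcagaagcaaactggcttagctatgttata
Pold1 intron, chr7:44536714-44536814: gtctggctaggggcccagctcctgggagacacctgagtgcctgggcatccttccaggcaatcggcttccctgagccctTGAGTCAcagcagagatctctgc
Cdc6 side, Rara intron, chr11:98933355-98933455: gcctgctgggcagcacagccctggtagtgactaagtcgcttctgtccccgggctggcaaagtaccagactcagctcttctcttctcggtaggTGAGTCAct

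That word occurred on either strand in 5 of the 12 distal elements of these genes that rose and in 3 of the 10 that fell, read over the whole element. It occurred in 26.8% of all distal elements tested, in 39.5% of those that rose and in 22.6% of those that fell. The word was chosen after the elements had been seen, and its share in the genes' own elements was not tested. The TEAD word GGAATG, chosen in the same way, occurred in 5 of 12 and in 3 of 10, against 36.6% of all.

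Of the other 9 elements that rose, 5 were likewise at 0 in all E11.5 and EPDC lists as ranked. In an intron of Tk1, 3.15 kb past its start (chr11:117822693-117823193), ranks were 58.3, 50.8 and 58.9 at E17.5, and 4.48 kb before E2f2 (chr4:136167660-136168160) they were 44.9, 50.7 and 39.7, with 0 in all other libraries at both. The element 22.9 kb past the Cdc6 start (chr11:98930817-98931317) had 27.4, 48.2 and 45.7 at E17.5 and 0 elsewhere. Weaker ones lay 2.25 kb before Tk1, at 24.5, 29.5 and 19.1, where 1 E11.5 library held a summit of 56 fragments outside its ranked list, and 26.2 kb past the start of Cdk1, at 14.7, 17.3 and 7.83. The intronic element 13.1 kb into E2f2 (chr4:136185246-136185746) was held by EPDCs too. It ranked 0, 32.8 and 31.8 at E11.5, 74.4, 82.5 and 71.2 at E17.5 and 72.0, 88.7 and 85.1 in EPDCs (adjusted p 0.012 between stages, limma). The adjusted p was 0.056, 0.053 and 0.051 without E17.5 replicate 1, 2 and 3. The element 3.62 kb before Ccnd1 (chr7:144943239-144943739) was open at both stages and rose from 50.4, 59.1 and 61.3 to 75.1, 72.5 and 74.7 (adjusted p 0.013), while the Ccnd1 promoter did not pass. The last 2 were also open at both stages. The element 9.03 kb before Cdt1 (chr8:122558732-122559232) rose from 78.4, 77.0 and 82.5 to 91.3, 91.2 and 90.1 (adjusted p 0.0042, limma). The element 20.8 kb past the Pold1 start, in an exon of Spib (chr7:44527833-44528333), rose from 74.0, 72.2 and 72.3 to 78.4, 81.3 and 84.3 (adjusted p 0.016, limma). With fold enrichment as the ranking value, the differences at the farther and the nearer Cdc6 element and at the intronic Tk1 element were 7.80, 3.18 and 9.69.

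Among the distal elements, losses at E17.5 were widest 5.92 kb before Mcm5. That intergenic element (chr8:75103399-75103899) ranked 58.9, 48.4 and 53.3 at E11.5, 40.3, 35.1 and 34.6 in EPDCs and 0 at E17.5, where 1 library held a summit of 31 fragments outside its ranked list. Its central bases hold neither word and are shown on the plus strand.
Mcm5 upstream element, chr8:75103599-75103699: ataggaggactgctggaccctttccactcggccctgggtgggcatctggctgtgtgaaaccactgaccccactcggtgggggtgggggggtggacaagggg

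Mki67 had 3 of the 10 elements counted as lower at E17.5, and its promoter did not pass. The first, 7.58 kb before its start (chr7:135723688-135724188), ranked 62.7, 71.4 and 55.3 at E11.5, 32.4, 17.99 and 11.6 at E17.5 and 68.7, 76.8 and 72.0 in EPDCs (adjusted p 0.0087, limma). Another in an exon of Mki67, 16.8 kb past the start, went from 80.2, 82.4 and 72.0 to 64.7, 55.0 and 60.0 (adjusted p 0.019). The third, in an intron of Ptpre (chr7:135680254-135680754), had 20.03, 47.8 and 43.5 at E11.5 and no summit at E17.5, so it is only described. Aurkb, the gene of the Aurora B mitotic kinase, had 2, at 8.18 and 4.52 kb before its start, with falls of 29.5 ± 3.98 and 7.72 ± 2.02 (adjusted p 0.0042 and 0.036). The remaining losses were near Rrm1, in an intron of Olfr543 (chr7:102479319-102479819), where 48.7, 52.5 and 52.7 fell to 9.11, 0 and 12.8 on summits of 14, 23 and 24 fragments, the second outside its ranked list, with 30.5, 7.15 and 32.3 in EPDCs, and near Mcm4, E2f8 and Gins2. At Mcm4 the element 17.3 kb past the start (chr16:15619825-15620325) went from 53.7, 32.2 and 32.7 to 0, where 1 E17.5 library held a summit of 22 fragments outside its ranked list.

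**Figure D4:**
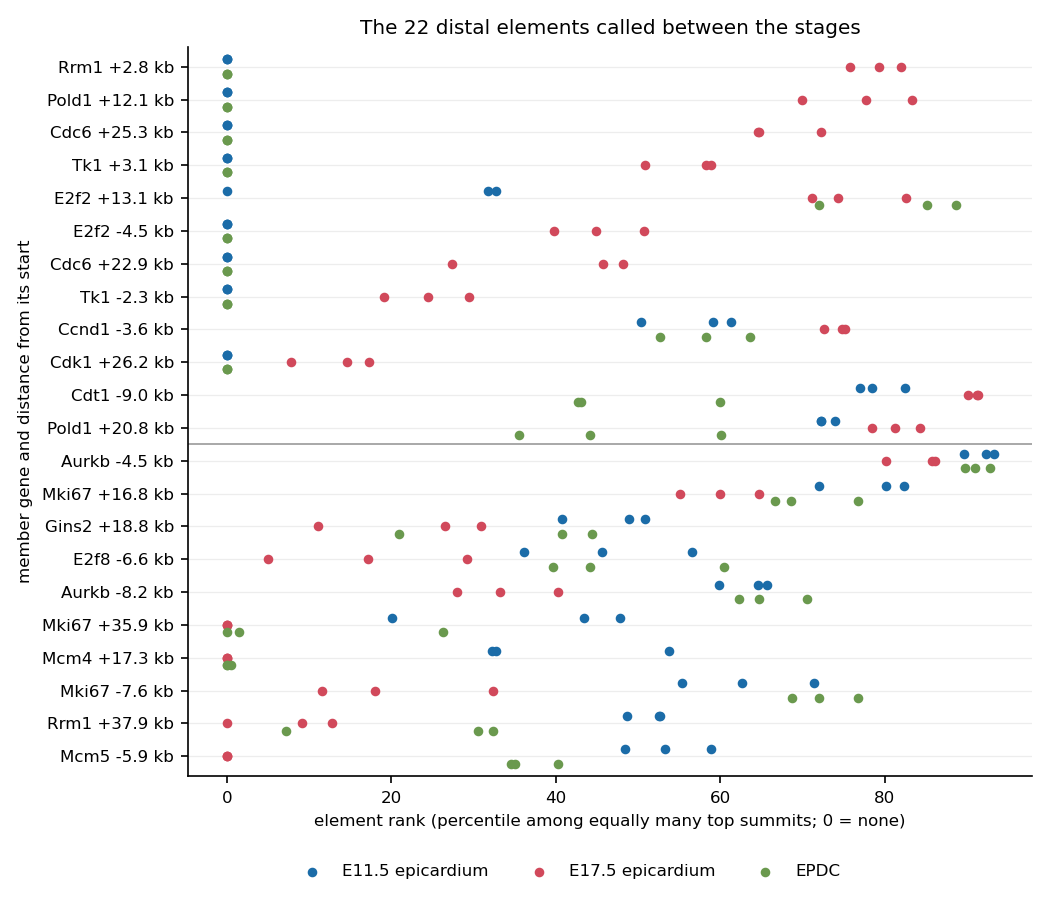
Element rank (x axis, percentile among equally many top summits, 0 where none) of the 22 distal elements called between the stages, 1 point for each library, ordered by the difference between stages, with the distance from the member's start on the y axis. The upper 12 were higher at E17.5, and the first 4 are at 0 in all E11.5 and EPDC libraries.

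At starts of other genes near the members, 33 elements were tested, and 8 were higher and 1 lower at E17.5. That 27.3% was close to the 24.7% of all promoter elements tested, where 3037 were higher and 1896 lower. The lower one was 1 of 2 elements at the start of Cldn5, an endothelial claudin beside Cdc45, and ranked 56.6, 67.0 and 71.1 at E11.5 against 4.59, 0 and 0 at E17.5 (adjusted p 0.00053, limma), with 60.8, 36.0 and 24.4 in EPDCs. All E17.5 libraries held a summit there, of 12, 21 and 17 fragments, the last pair outside their ranked lists. The other Cldn5 element had 67.3, 58.7 and 51.8 against 56.4, 50.3 and 55.1 (adjusted p 0.42, limma). The 6 endothelial markers were called at 2 of 6 promoters in every library, with mean ranks of 17.9 to 19.1 at E11.5 and 18.3 to 19.6 at E17.5. Of 2 elements at the Mybpc2 start beside Pold1, the one called had 25.6, 16.2 and 23.5 at E11.5, 63.3, 62.6 and 59.5 at E17.5 and 0 in EPDCs (adjusted p 0.00087, limma), where 1 library held a summit of 65 fragments outside its ranked list. The other had 36.5, 4.69 and 33.3 at E11.5, 65.3, 57.4 and 51.8 at E17.5 and 63.1, 64.8 and 68.5 in EPDCs (adjusted p 0.051, limma). The higher ones were at Podxl2 and Tpra1 near Mcm2, Mybpc2 near Pold1, Necab3 near E2f1, Cops6 near Mcm7, Aprt near Cdt1, Borcs6 near Aurkb and Cc2d1b near Orc1. At Podxl2 and Tpra1 a stronger element nearer the start did not pass (adjusted p 0.72 and 0.16, limma).

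In EPDCs 3 of the 42 promoters called in the epicardium ranked higher and 7 lower than there, against 29.5% of all 14941 promoters tested that had a summit in an epicardial library. Rrm2 entered this test through the EPDC lists alone and is left out of the count. Higher were Mcm4, Ccnd1 and E2f1, and lower were Mcm2, Mcm10, Rfc4, Ccnb1, Top2a, Bub1 and Cdkn1a. E2f1, a factor that activates S phase genes, had 89.7, 90.7 and 92.7 in EPDCs, above the 77.2 to 86.0 of the epicardium, a difference of 8.54 ± 2.13 (SE, adjusted p 0.0077, limma). Top2a had 62.2, 74.0 and 80.7, with the EPDC value given as E12.5 first, and a difference of −11.7 ± 3.42 (adjusted p 0.020). Rfc4, at 65.4, 65.9 and 71.1, differed by −11.2 ± 2.53 (adjusted p 0.0042), and Cdkn1a, at 52.6, 62.2 and 48.3, by −8.39 ± 2.88 (adjusted p 0.040). The test averages both stages, and at Top2a, Rfc4 and Cdkn1a the EPDC ranks overlapped those of E11.5 and lay below those of E17.5. This comparison shares its epicardial libraries with the one between stages, so the values stand side by side and are not independent. Without the E13.5 EPDC library 1, or without library 2, 4 promoters ranked lower in place of 7. The sort and the day of the EPDCs, and possibly the processing of their lists, differ from those of the epicardium together and cannot be told apart.

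Rrm2, which encodes the small subunit of ribonucleotide reductase, was the exception among the 43. No epicardial library had a summit from 25.4 kb before its start to 26.8 kb past it, a gap of 52.2 kb. The EPDC libraries held 7, 9 and 9 summits in that gap. Their promoter summits ranked 68.7, 72.2 and 71.3 among promoters, with 204, 302 and 759 fragments and fold enrichments of 13.9, 11.8 and 9.85. They were among the strongest summits of each EPDC list, at percentiles of 91.2, 92.9 and 94.3. All 3 EPDC libraries and no epicardial library called 379 protein-coding promoters, and at 192 of these the EPDC summits were above percentile 90 of all summits, of 7065 promoters that were above it in all 3. According to the methods, reads in blacklisted regions had been removed, and whether the same regions were removed from both kinds of list was not tested. The lists therefore give no epicardial value for Rrm2.

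**Figure D5:**
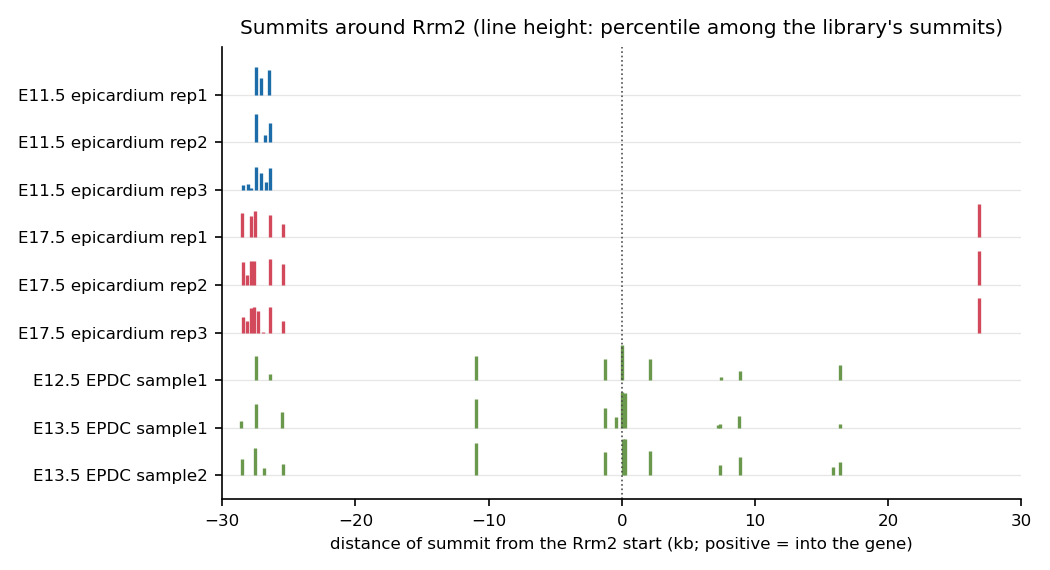
Summits within 30 kb of the Rrm2 start (x axis, kb) in each of the 9 libraries (rows), with line height giving the percentile among the library's own summits. The 6 epicardial rows are empty between −25.4 and 26.8 kb, where the 3 EPDC rows hold 7, 9 and 9 summits.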

How the data were processed

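ATAC-seq had been run on 10 samples, of which the technical replicates of 1 EPDC sample share 1 list, leaving 9 libraries. According to the methods, the authors aligned reads to mm10 with an nf-core pipeline, removed mitochondrial, blacklisted, duplicate and multimapped reads, and called peaks and summits with MACS2 2.2.9.1 on whole fragments of each library. The deposited lists give for each summit a fold enrichment (a ratio to local background), a −log10 p-value and a −log10 q-value, none normalized between libraries. Weaker sites are not in the lists, so an uncalled promoter is not shown to be closed. Replicates are separate pools of hearts per the labels.

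Groups came from the labels. A gene's promoter was the strongest summit within 1 kb of any of its GENCODE M21 protein-coding transcript starts. Summits were extended by 250 bp each way into 501 bp elements. Promoters and elements with a summit in at least 3 libraries were tested with limma 3.58.1 (R 4.3.3, trended and robust) over the whole table, with Benjamini-Hochberg adjustment and a threshold of 0.05. The EPDC comparison set the EPDC mean against the mean of both epicardial stages over 9 libraries. Fragments at summits were solved with Python 3.11.15, numpy 2.4.6, pandas 2.3.3 and scipy 1.17.1. Both steps were tested on simulated data. The limma test missed most of the smaller shifts tried there, so a promoter that did not pass is not shown to be unchanged. Precision is limited by 3 libraries a group, and the fragments behind a rank are given for the promoters called between the stages.

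The alternatives were other ranking values, scales, windows, filters and overlaps, a replicate block and leaving out each library. Of these, the centred scales and the limits to features called in all 6 libraries were chosen after seeing the data, as were the AP-1 and TEAD words. Every library's value is given, in the text or in a plot, for called promoters filled to 12 by size of difference, for promoters lacking a summit somewhere and for the 12 widest called elements that are not a member's promoter, with Cdkn1a, Ccnd1, Ccnd2, Mki67 and Pcna in any case. Other elements and genes with values were chosen after their values were seen. The members and lists were chosen with earlier results of these data known.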

Additional observations from a re-analysis of the deposited data

Results flagged for a closer look

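The EPDC lists did not enter the comparison between stages, and they held 18 regions near the 43 genes that no epicardial list held. Of these, 5 were called in all 3 EPDC lists. At Rrm2 there were 4 of the 5, and the other lay 13.0 kb past the start of Gins2, with percentiles of 50.03, 59.8 and 53.9 among all summits of its lists. No share over all regions was set beside these counts, so they are not read as a trait of these genes. The cause was not tested.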

How the results depend on the processing

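Against 3 promoters higher and 1 lower at E17.5 among the 43 genes, ranking among all peaks gave 0 and 2, equally many top peaks 6 higher, depth-scaled score 10 and 0, and fragments over background 38 and 0. Limiting to promoters called in all 6 libraries gave 5 higher. The narrow window and the gene start alone gave 2 and 3 lower, and the centred score and centred fragments 2 and 3 lower. Over all promoters, 1820 higher became 929 among all peaks, 3997 as depth-scaled score and 10689 as fragments, and 1926 lower became 1206 by fold enrichment, 1173 as fragments and 3391 as centred fragments. Against 12 distal elements higher and 10 lower, fragments gave 22 and 17, interval overlap 20 and 20, elements called in all 6 libraries 6 higher, all peaks 22 lower, depth-scaled score 22 lower and a 5 kb limit 3 lower. Over all elements, fragments gave 32273 higher, the limit to all 6 libraries 12463 higher and 12501 lower, all peaks 42791 lower and depth-scaled score 40425 lower. In EPDCs, with Rrm2 counted, fold enrichment gave 2 members higher in place of 4, and 1466 of all promoters lower in place of 2881.

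Leaving out 1 library gave 0 to 4 members higher and 1 to 2 lower, 1219 to 1702 promoters higher and 1451 to 1813 lower, 10 to 13 distal elements higher and 6 to 8 lower, and 15069 to 17068 elements higher and 17074 to 19350 lower. In EPDCs, again with Rrm2, it gave 3 to 4 members higher and 4 to 5 lower, and 1437 to 1648 promoters higher and 1958 to 2360 lower.

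Directions turned for Cdkn1a by fold enrichment (−2.77) and Ccnd2 by gene start (−8.42), and on the log2 fragments scale for Mki67 (0.47), Mcm5 (0.32), Cdk1 (0.38), Mcm6 (0.33) and Gins1 (0.29), where all promoters shifted upward. Uncalled differences also changed sign for Ccnd1 without E11.5 replicate 1 (−0.46), among all peaks and on both centred scales, for Gins1 by gene start, for Ccnd2 on centred fragments, and for Mki67, Cdk1, Mcm6 and Gins1 as depth-scaled score, none of them called there. The adjusted p (limma) ranged over the alternatives from 0.00011 to 0.45 for Tyms, 1.5e-07 to 0.42 for Cdkn1a, 5.7e-07 to 0.29 for Rfc4 and 1.8e-05 to 0.83 for Ccne1. The causes were not tested.

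Same-numbered libraries did not deviate together (correlations 0, 0.03 and −0.09), so the numbers do not pair them. With the replicate block 3 members were higher and 1 lower, 1578 and 1757 promoters, 11 and 8 distal elements and 15101 and 17692 elements.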
